A study of Ovis aries with 7 samples.

Results

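Eccentric medium spiny neurons (MSNs) were taken from the nuclei of the sheep striatum as the barcodes that were selected on 6 readouts of their own raw counts of unique molecular identifiers (UMIs, each standing for 1 captured transcript). A barcode was kept if it had 5000 or more UMIs and at most 7500 detected genes, 30 or more ERBB4 UMIs per 10000, at least 1 OTOF UMI, at least 10 UMIs of PDE10A, RGS9 and RARB together, and more UMIs of OTOF and FOXP2 than of NXPH1, KIT and CRABP1. CASZ1, which also belongs to the selection, was not analysed here. These limits gave 198 nuclei of 35272 barcodes (0.561%), or 2.34% of the 8467 barcodes with 5000 or more UMIs and at most 7500 genes.

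The nuclei came from 12 sheep aged 5 years, 6 of them OVT73 and 6 controls without the transgene. OVT73 sheep carry a full-length human HTT cDNA with an expanded CAG repeat, driven by the human genomic sequence just upstream of HTT, and serve as a model of Huntington's disease. Nuclei were sequenced as 7 droplet libraries, of which the 3 OVT73 libraries (3, 5 and 7) and control libraries 1 and 2 pooled 2 sheep each, while control libraries 4 and 6 held 1 sheep each. Sheep within a pool were not told apart, and the library, not the nucleus, was the replicate. Control libraries 1, 2, 4 and 6 gave 19, 18, 21 and 17 eccentric MSNs, and OVT73 libraries 3, 5 and 7 gave 29, 38 and 56.

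MSNs are the GABAergic projection neurons of the striatum, and most belong to the direct pathway (D1, with dopamine receptor DRD1, TAC1 and EBF1) or the indirect pathway (D2, with DRD2, PENK and ADORA2A). Eccentric MSNs are a small additional population, described in rodents, that keeps the general MSN programme but expresses OTOF, FOXP2, CASZ1 and TSHZ1. They carry ERBB4, a receptor for neuregulins that in the striatum is otherwise best known from interneurons. DRD1 was not analysed here, so that D1 identity rested on TAC1 and EBF1.

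The members' UMIs summed to between 376835 and 567423 in a control library and between 888180 and 1918307 in an OVT73 library. The median UMIs per member were 19204, 24511, 26985 and 17816 in control libraries 1, 2, 4 and 6, against 30019, 21568 and 32431 in OVT73 libraries 3, 5 and 7, so that the groups overlapped in depth per nucleus but not in summed depth. No member had more than 5% of UMIs from mitochondrial genes. The 7 libraries shared 159 barcode sequences, and the barcodes of 2 members also occurred in another library, where they were not members. Doublet scores placed 3 members among the 4% highest of their library.

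The limits were met by wide margins for ERBB4 and by small ones for OTOF. The median member had 115 ERBB4 UMIs per 10000, the member nearest to the limit had 30.1, and the nearest barcode that failed on ERBB4 alone had 26.8. ERBB4 alone kept out 322 barcodes, OTOF alone 54, the MSN sum alone 67, and the comparison with the interneuron genes alone 17. OTOF stood at exactly 1 UMI in 59 members, with a median of 2 and a maximum of 20.

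The label was examined with TSHZ1, the marker that the selection did not use. TSHZ1, which encodes a zinc finger transcription factor, had at least 1 UMI in 191 of the 198 members. In CPM, the members' UMIs of a gene per 1000000 of their summed UMIs in the library, TSHZ1 stood at 503, 448, 386 and 451 in control libraries 1, 2, 4 and 6, against 377, 426 and 531 in OVT73 libraries 3, 5 and 7. In every library this was above D1 MSNs, D2 MSNs and ERBB4 interneurons, whose means over libraries were 50.3, 60.9 and 58 CPM. After thinning to 5000 UMIs per nucleus, TSHZ1 was detected in 82.8% of members against 20.6% of D1 MSNs, 23.0% of D2 MSNs and 29.9% of ERBB4 interneurons (96.5%, 58%, 67.3% and 45% unthinned, at median depths of 26250, 23123, 31319 and 10475 UMIs). TSHZ1 was thus present in most members, and no other marker of the label was free of the selection.

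For comparison, nuclei of the same depth limits were gated as D1 MSNs (2555 nuclei), D2 MSNs (921) and ERBB4 interneurons (726) on the same kinds of genes. Since all classes were chosen by transcripts of the nuclei compared, contrasts between them are given as descriptions with no test. The genes that drew the members differed by construction. ERBB4 averaged 11247 ± 1009 CPM (SD, n = 7 libraries) in members against 103 in D1 and 104 in D2 MSNs, and 11002 in ERBB4 interneurons. FOXP2, a forkhead transcription factor, averaged 1599 ± 196 CPM against 75.4, 3.1 and 31.9, and OTOF, which encodes the calcium sensor otoferlin, 128 ± 27.9 CPM against 2.42, 5.58 and 7.14.

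Of the general MSN genes, PDE10A, the striatal phosphodiesterase, was part of the selection of all 3 MSN classes, and stood at 3150 ± 448 CPM in members, 3066 in D1 and 3309 in D2 MSNs. MEIS2 and BCL11B were used by no gate. MEIS2, a homeobox factor of the striatal lineage, stood at 1708 ± 152 CPM against 1369 and 1462 in D1 and D2 MSNs and 168 in the interneurons and was higher than in both MSN classes in all 7 libraries, though by less than 2-fold, and BCL11B at 238 ± 52.8 against 231 and 268. FOXP1 went the other way. This forkhead factor of MSNs averaged 235 ± 127 CPM in members against 1409 and 1567 in D1 and D2 MSNs, and its highest member library (control library 4, 465 CPM) remained under the mean of either class.

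**Figure D1:**
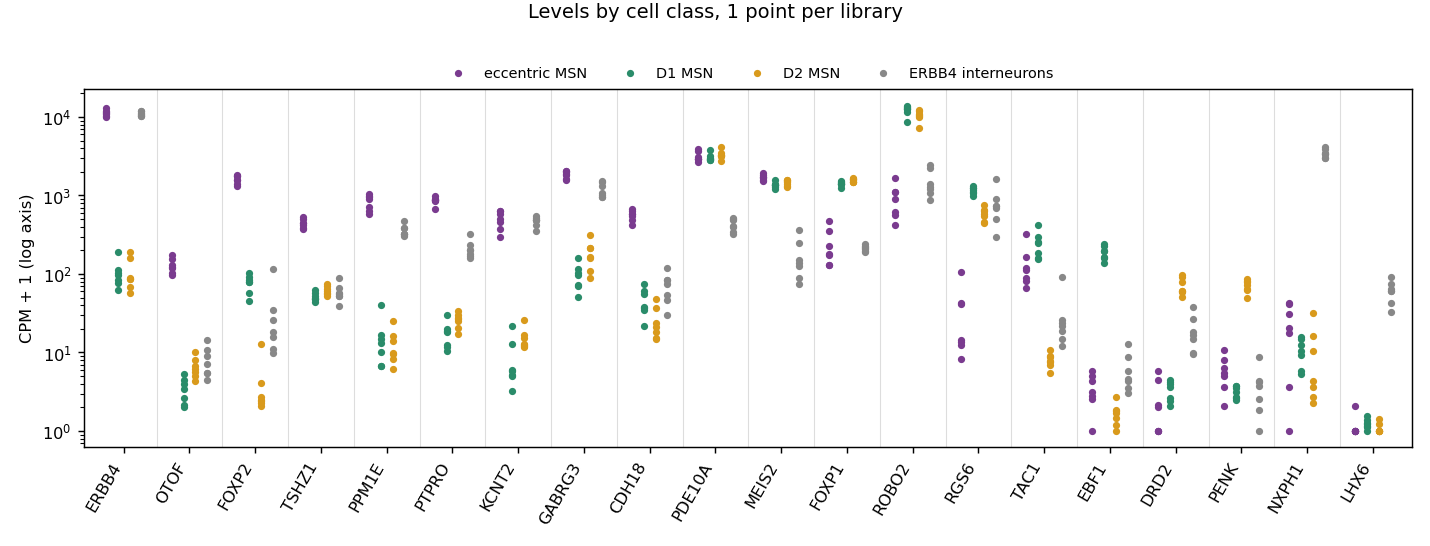
Levels of 20 genes in eccentric MSNs, D1 MSNs, D2 MSNs and ERBB4 interneurons, as CPM + 1 on a log axis, with 1 point for each of the 7 libraries. TSHZ1, PPM1E, PTPRO and CDH18 are over 2-fold higher in eccentric MSNs than in the other MSNs in every library, FOXP1, ROBO2 and RGS6 are lower, and PDE10A lies with the other MSNs, as does MEIS2 to within 2-fold.

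Across the 7842 genes with a mean of at least 10 CPM in 1 of the 3 MSN classes, 97 (1.24%) were over 2-fold higher in members than in both D1 and D2 MSNs in every library, and 47 (0.599%) were over 2-fold lower, on the scale of log2(CPM + 10), which understates the change of low genes. The largest positive log2 ratio outside the selection genes was that of PPM1E, a protein phosphatase of the PPM family, at 5.17 against D1 and 5.28 against D2 MSNs. Its level was 635, 955, 1045 and 905 CPM in control libraries 1, 2, 4 and 6, against 585, 708 and 971 CPM in OVT73 libraries 3, 5 and 7. The means in D1 and D2 MSNs were 14.6 and 11.8 CPM. PTPRO, a receptor tyrosine phosphatase, followed with 862 ± 93.3 CPM against 16.3 and 24.9, and then KCNT2, a sodium-activated potassium channel, with 494 ± 129 CPM against 7.54 and 14.3. ALK, a receptor tyrosine kinase, reached 3051 ± 634 CPM against 13.4 CPM in D1 and 248 CPM in D2 MSNs. The others of the 15 highest genes were PCDH15, SEZ6L, GABRG3, CDH18, LUZP2, GPC5, SEMA5B, ADARB2, CLSTN2, KIRREL1 and ADCY2. Their mean log2 ratios lay between 3.22 and 4.52, and several of them encode cell surface proteins.

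Several of these genes were also high in ERBB4 interneurons, and others were not. KCNT2 stood at 472 CPM, PPM1E at 360 and ALK at 850 CPM in the interneurons. CDH18, a cadherin, stood at 562 ± 90.3 CPM in members and at 69.4 in the interneurons, and KIRREL1 at 101 ± 27.1 against 19.8. The interneuron gate also took in nuclei with markers of oligodendrocyte precursor cells (OPCs). A list of OPC genes summed to 5543 CPM in this class, against 1510 CPM over all barcodes and 2116 CPM in the 290 nuclei described next. Other values given for ERBB4 interneurons cover all 726 nuclei, and the part of OPC nuclei in them was not tested. In the 290 of its nuclei that had at least 5 GAD1 and GAD2 UMIs and fewer than 5 VCAN and PDGFRA UMIs, a gate chosen after the data were seen, KCNT2 was at 495, PPM1E at 386, ALK at 1264 and CDH18 at 30.6 CPM.

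The genes lowest in members relative to the other MSNs were led by RGS6, a regulator of G protein signalling. It stood at 7.21, 42.0, 106 and 13.3 CPM in control libraries 1, 2, 4 and 6, against 11.6, 40.5 and 12.5 CPM in OVT73 libraries 3, 5 and 7, where the means of D1 and D2 MSNs were 1165 and 580 CPM. ROBO2, an axon guidance receptor for SLIT ligands, stood at 911 ± 424 CPM against 12217 and 10432, and DCC, the netrin receptor, at 523 ± 354 against 3121 and 3091. HS3ST4, GULP1, CALD1, PTCHD4, COCH, SH3BGRL2, FOXP1, KCTD8, CA10, LRMDA, MUC15 and SLC22A15 completed the 15 lowest, with mean log2 ratios between -4.33 and -2.46. The spread between libraries differed among these low genes, with log2 ratios of -5.70 to -2.81 for RGS6 and -2.82 to -2.32 for MUC15. Control library 4 held the highest value of RGS6, ROBO2 and FOXP1.

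Glutamate receptor genes differed in single subunits. For these and the lists that follow, 1.24% of all 7842 genes were over 2-fold higher in every library and 0.599% were over 2-fold lower. GRIN2A, an NMDA receptor subunit, was over 2-fold higher in every library, with 740 ± 159 CPM against 155 and 212 in D1 and D2 MSNs, while GRIN2B stood at 1374 ± 168 against 1851 and 1939. GRIK4, a kainate receptor subunit, was likewise higher with 586 ± 99.8 against 88.8 and 116. None of the 4 AMPA receptor genes and none of the 5 metabotropic receptor genes at 10 CPM or more passed the 2-fold limit. GRIA2, for example, stood at 1378 ± 110 CPM against 1314 and 1384.

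Of 12 GABAA receptor genes at 10 CPM or more, GABRG3, a gamma subunit, passed the limit with 1854 ± 198 CPM against 95.2 and 179. GABRA4, an alpha subunit, lay near the other MSNs at 867 ± 132 CPM against 766 and 811. GAD1, which makes GABA from glutamate, stood at 202 ± 58.3 CPM against 76.2 and 113 and was higher in every library, but not by 2-fold in all.

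Neuregulin ligands of ERBB4 were present in the same nuclei. NRG1 stood at 9766 ± 1163 CPM in members against 7282 and 7904 in D1 and D2 MSNs and 870 in the interneurons, and NRG2 at 433 ± 42.6 against 393 and 437. NRG3 varied between 162 CPM (control library 6) and 1389 CPM (control library 4) in members, against 2834 in D1 and 205 in D2 MSNs.

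Over all 7842 genes, 1.24% were over 2-fold higher in every library and 0.599% were over 2-fold lower. Among 24 potassium channel genes at 10 CPM or more, KCNT2, KCNJ3 and KCNIP1 were over 2-fold higher in every library and KCNIP2 was lower. KCNJ3, an inward rectifier subunit opened by G proteins, stood at 714 ± 80.7 CPM against 173 and 171. None of 21 calcium and sodium channel genes passed in either direction. Among 32 axon guidance genes, SEMA5B, NTNG1 and EPHA3 were higher, and ROBO2, DCC and EFNA5 lower. NTNG1, a netrin-G gene, stood at 743 ± 144 CPM against 90.4 and 139 CPM, and EFNA5, an ephrin, at 77.3 ± 10.2 against 335 and 458.

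Among the transcription factor genes, FOXP2 and TSHZ1 were higher and FOXP1 lower, as given above. Of 27 genes of cyclic nucleotide signalling, PDE4B (3342 ± 437 against 1129 and 1188) and ADCY2 (161 ± 45.2 against 10.2 and 5.43) were higher, and PDE1C, RGS6 and RGS14 were lower. ADCY5, the main adenylyl cyclase of MSNs, stood at 781 ± 173 CPM against 809 and 925. No heat shock, proteasome, oxidative phosphorylation or ribosomal protein gene passed.

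A list of other genes published for eccentric MSNs was present in part. Of its 16 genes, 9 reached 10 CPM in an MSN class, and COL11A1, ADARB2, ALK, GALNTL6 and SEMA5B were over 2-fold higher in every library. The others at that level, GRM8, KCNIP4, UNC5D and OPRM1, did not pass in either direction. KCNIP4 averaged 4133 CPM in members against 1796 in D1 and 2250 in D2 MSNs, and OPRM1 211 against 123 and 277. GRM8 stood at 907 and 1007 CPM in D1 and D2 MSNs and UNC5D at 28.4 and 338, while members varied in both, as described below. The share over all 7842 genes at that level was 1.24%. ADARB2, an RNA-binding protein of the ADAR family, averaged 965 ± 265 CPM against 163 and 4.55. NPFFR1, HTR7, PCDH8 and CACNG5 had means of at most 2.44 CPM, and TH and RXFP2 had no UMI in any member, where 3 UMIs over all members would be 0.534 CPM (a limit that covers counting error only).

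Lists of markers of other cell types gave low sums in members for some types and high sums for others. Of 6 genes of glutamatergic projection neurons, SLC17A7, SLC17A6, TBR1, NEUROD6 and SLC30A3 had no UMI. Of 5 cholinergic genes, SLC5A7, SLC18A3 and LHX8 had none and CHAT stood at 1.66 CPM. LHX6, which marks interneurons of the medial ganglionic eminence, had 1 UMI in all members, whereas NXPH1 and KIT, which the selection kept low but not absent, stood at 21.6 and 41.3 CPM. The 6 oligodendrocyte genes, led by RNF220, summed to between 60.1 and 183 CPM in a library, against 1501 to 3229 CPM over all barcodes. The 6 OPC genes summed to 1036 to 1901 CPM, which came from PCDH15 (742), LUZP2 (484) and PTPRZ1 (163), while the OPC genes PDGFRA and VCAN stood at 11 and 38.4 CPM. The list of parvalbumin and TH interneurons averaged 835 ± 261 CPM in members, of which CLSTN2, a calsyntenin, made up 753, and the neuroblast list 1167 ± 262 CPM, of which ADARB2 made up 965 and DCX 171. After thinning, DCX was detected in 54.5% of members, 45.4% of D1 and 47.4% of D2 MSNs. The microglial list averaged 43.9 CPM, led by LRMDA at 29.5 with no UMI of CX3CR1, and the endothelial list 13.9 CPM, led by FLT1 at 7.81. The astrocyte list averaged 61.2 CPM, led by SLC1A2, and the SST and NPY interneuron list 21.8 CPM.

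The D1 and D2 genes divided the members unequally. The D1 and D2 MSNs set beside them were themselves gated on TAC1 and EBF1 or on DRD2, PENK and ADORA2A, so that the levels of these 5 genes in those classes were fixed in part by the gates. TAC1, which encodes the substance P precursor, had a UMI in 131 of 198 members (66.2%). EBF1, the D1 transcription factor, averaged 2.52 CPM in members against 188 in D1 MSNs, and PDYN had no UMI. DRD2 and PENK averaged 1.5 and 4.88 CPM in members against 70.5 and 69.9 in D2 MSNs. By more UMIs of TAC1 and EBF1 than of DRD2, PENK and ADORA2A, 131 members were called D1-like, 7 were D2-like and 60 were tied, of which 58 had no UMI of either set. With EBF1 near 0, D1-like stands for TAC1 in nearly all cases. All genes of the D1 list summed to 417 ± 208 CPM in members, of which RELN made up 277. The D1 list stood at 1335 CPM in D1 and 435 CPM in D2 MSNs, so that members were near D2 MSNs on it. Those of the D2 list summed to 556 ± 120 CPM in members, mostly PTPRM, against 776 CPM in D2 and 99.2 CPM in D1 MSNs. TAC1 in members ranged from 65.4 CPM (OVT73 library 3) to 326 CPM (control library 6). In every library it was below the D1 MSNs of that library, which ranged from 153 CPM (control library 2) to 418 CPM (control library 6). PTPRM, a receptor phosphatase on the list of D2 genes, stood at 470 ± 126 CPM in members against 44.9 in D1 and 323 in D2 MSNs. After thinning to 5000 UMIs, TAC1 was detected in 32.3% of members and in 10.6% of ERBB4 interneurons, whose gate did not use it.

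Members also varied in UNC5D, a netrin receptor, of which 109 of them had no UMI. A limit of 2 UMIs per 10000, set after the data were seen, gave 56 UNC5D-high and 142 UNC5D-low nuclei, with 19 nuclei between 1 and 3 UMIs per 10000. Both kinds occurred in every library, with 4, 4, 8 and 3 UNC5D-high nuclei in control libraries 1, 2, 4 and 6, against 10, 12 and 15 in OVT73 libraries 3, 5 and 7. Their median depths were 22697 and 27007 UMIs. The differences between them are a description, since the limit was set on these nuclei, and UNC5D-high values rest on as few as 3 nuclei in a library.

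UNC5D-high nuclei had more GRM8, a metabotropic glutamate receptor, with 1246 CPM over all such nuclei against 111 CPM in UNC5D-low nuclei, and higher in 7 of 7 libraries. The D1 and D2 MSN means of GRM8, 907 and 1007 CPM, lay between these values. KCNIP4, a potassium channel partner, stood at 10157 against 1828 CPM, KCNH5 at 348 against 44.0, and GRIK3 at 188 against 22.3. PRLR, the prolactin receptor, stood at 89.7 against 2.38 CPM. ARHGAP28, PDE1A, LYPD1, SEMA3E, STXBP6, KCNJ6, VWC2L, ADCY2, PTPRK and ELAVL2 completed the 15 highest genes that pointed the same way in all 7 libraries.

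UNC5D-low nuclei had more TAC1 (158 against 42.0 CPM), which had a UMI in 76.1% of them and in 41.1% of UNC5D-high nuclei. They also had more ALK (3498 against 1608), SAMD5 (153 against 24.9), KIT, a receptor tyrosine kinase (55.1 against 7.83), and PDE10A (3567 against 1876). KIT and PDE10A were among the genes that the selection used, so that their levels in both kinds of nuclei were limited in part by it. BMP6, SASH1, RELN, RGS2, VAV3, NTN1, FBXO15, TESC, GPC5, BMPR1B and LIN28B were the others of the 15 lowest. TSHZ1, the marker that the selection did not use, stood at 558 and 425 CPM in UNC5D-high and UNC5D-low nuclei, while the presence of ERBB4 and OTOF in both was fixed by the selection. MOG, a gene of oligodendrocytes, was at 21.3 CPM in UNC5D-high and 12.6 CPM in UNC5D-low nuclei, and NXPH1 at 57.6 and 10.5; their part in the contrast was not tested.

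**Figure D2:**
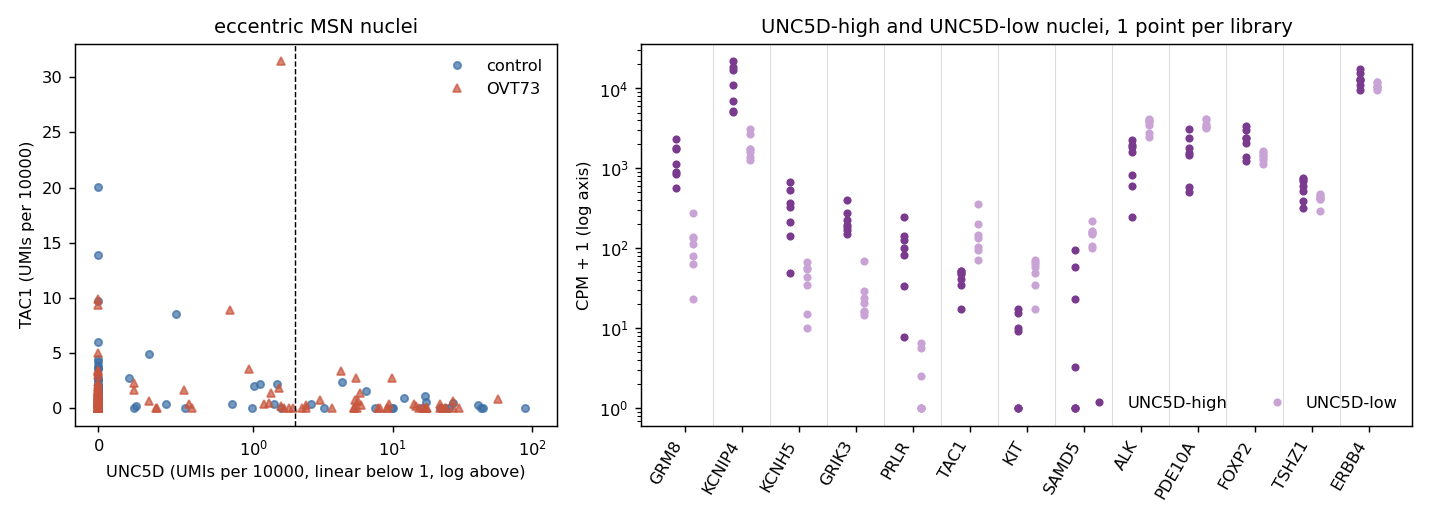
Left, UNC5D and TAC1 in each of the 198 eccentric MSNs as UMIs per 10000, with control and OVT73 nuclei marked and the limit of 2 UNC5D UMIs per 10000 dashed. Right, CPM + 1 of 13 genes on a log axis in UNC5D-high and UNC5D-low nuclei, with 1 point per library, where GRM8, KCNIP4 and GRIK3 do not overlap between the 2 kinds of nuclei and TSHZ1 and ERBB4 overlap.

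To ask whether the OVT73 striatum held a different proportion of these neurons, their share was compared between libraries by an exact permutation test, two-sided, in which the 7 libraries can be split 35 ways and 0.0286 is the smallest possible p. Of barcodes with 200 to 7500 genes, members made up 0.446%, 0.375%, 0.513% and 0.519% in control libraries 1, 2, 4 and 6, against 0.653%, 0.685% and 0.637% in OVT73 libraries 3, 5 and 7. All 3 OVT73 libraries were higher than all 4 control libraries, with means of 0.658% ± 0.0249 (SD, n = 3) and 0.463% ± 0.0674 (n = 4), an exact p of 0.0286, and 0.171 after Benjamini-Hochberg adjustment over the 6 shares compared. The selection needs 5000 UMIs, however, and barcodes of that depth made up 23.0%, 29.5% and 27.0% of OVT73 libraries 3, 5 and 7 and 22.3%, 18.9%, 18.6% and 24.9% of control libraries 1, 2, 4 and 6.

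With depth taken into account the shares overlapped. Members were 2%, 1.99%, 2.75% and 2.08% of the barcodes with 5000 or more UMIs in the control libraries and 2.84%, 2.32% and 2.36% in the OVT73 libraries (exact p = 0.371, adjusted 0.943). They were 5.75% ± 0.615 (SD, n = 3) of eccentric, D1 and D2 MSNs in OVT73 and 5.25% ± 1.99 (n = 4) in control libraries (exact p = 0.714, adjusted 0.943). When each nucleus was thinned to 5000 UMIs before the selection, 88 nuclei met it, 0.261% of barcodes in OVT73 and 0.234% in control libraries (exact p = 0.571). In tissue, fewer cells and less RNA per cell cannot be told apart by such shares.

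**Figure D3:**
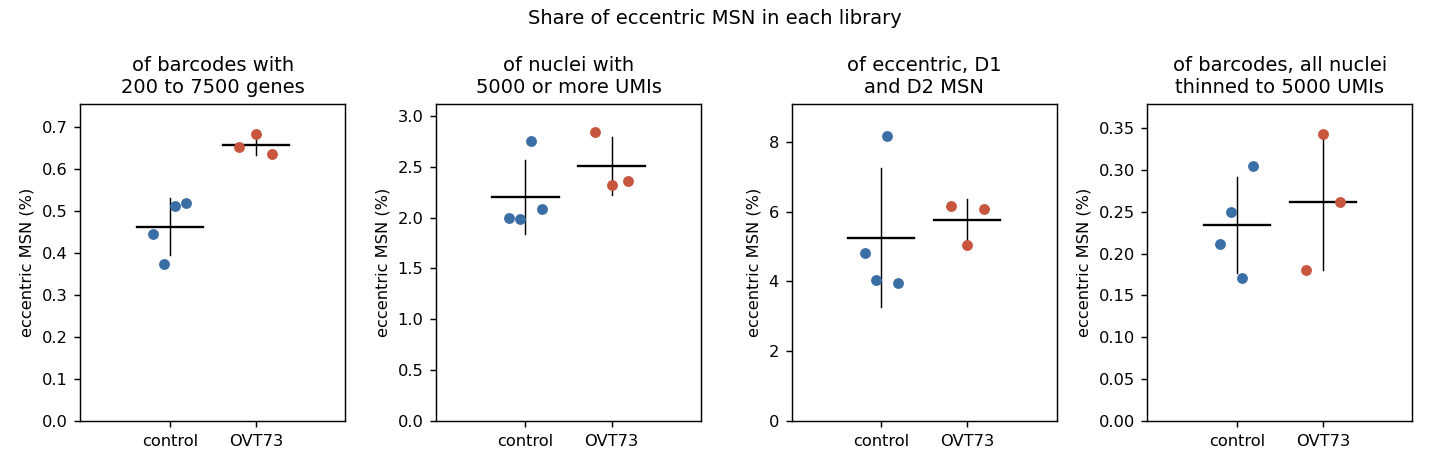
Eccentric MSNs as percent of 3 denominators, and of barcodes after thinning every nucleus to 5000 UMIs, with 1 point per library and the mean with SD as lines. The groups are apart only in the first panel, at 0.375% to 0.519% in control and 0.637% to 0.685% in OVT73 libraries.

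The makeup of the members also overlapped. D1-like nuclei were 65.0% ± 12.1 of members in OVT73 (n = 3 libraries) and 65.5% ± 13.3 in control libraries (n = 4; exact p = 0.914), and the exact p was 0.743 for D2-like and 0.943 for tied nuclei, each 0.943 after adjustment. After thinning to 5000 UMIs before the selection, D1-like nuclei were 30.9% of members in OVT73 and 49.1% in control libraries (exact p = 0.486). UNC5D-high nuclei were 21.1%, 22.2%, 38.1% and 17.6% of members in control libraries 1, 2, 4 and 6, against 34.5%, 31.6% and 26.8% in OVT73 libraries 3, 5 and 7.

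Transcript levels of OVT73 and control members were compared on the UMIs summed per library with edgeR's quasi-likelihood test and Benjamini-Hochberg adjustment. Of 6132 genes tested, 0 passed an adjusted p of 0.05 (0% called) and 334 had an unadjusted p under 0.05, while DESeq2 called 1 gene, UBE2U. In D1 and D2 MSNs of the same libraries 0 of 12554 and 0 of 10567 genes passed. TSHZ1, the marker that the selection did not use, had a log2 fold change of 0.04 (SE 0.15) and an edgeR adjusted p of 0.990. ERBB4, OTOF and FOXP2 were part of the fit over all genes, but their values are not given, since members were chosen by them. Endogenous HTT stood at 132, 112, 86.4 and 74.3 CPM in control libraries 1, 2, 4 and 6, against 112, 88.9 and 90.7 CPM in OVT73 libraries 3, 5 and 7, with a log2 fold change of -0.03 (SE 0.20).

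Some genes separated the groups without overlap. In normalised CPM, 179 of the genes tested (2.92%) were higher in all 3 OVT73 than in all 4 control libraries and 190 (3.1%) were lower, and the genes named next had the smallest p among these, so that their separation was what chose them.

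UBE2U, a member of the E2 family of ubiquitin-conjugating enzymes, led the higher genes. Its normalised CPM was 68.1, 112, 106 and 83.5 in control libraries 1, 2, 4 and 6, against 201, 200 and 183 in OVT73 libraries 3, 5 and 7, from 28 to 57 UMIs in a control and 165 to 333 in an OVT73 library. The log2 fold change was 1.06 (SE 0.18) with an edgeR adjusted p of 0.234. In D1 and D2 MSNs it was 0.27 (SE 0.15) and -0.01 (SE 0.14), at mean levels of 85.8 and 95.6 normalised CPM in control libraries, close to the 92.3 of control members.

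SEMA5A, a transmembrane semaphorin, stood at 99.7, 60, 78 and 64.7 normalised CPM in control and 127, 113 and 150 in OVT73 libraries (log2 fold change 0.80, SE 0.20). MCU, the pore of the mitochondrial calcium uniporter, stood at 41.3 to 62.0 in control and 77.9 to 90.1 in OVT73 libraries. SPARCL1, LAMC1 (a laminin chain), NUBPL (an assembly factor of respiratory complex I), PEX5L, LDLRAD4, FRMD3 and MAATS1 completed the 10 higher genes, with log2 fold changes between 0.54 and 1.12. All 9 genes other than UBE2U had an edgeR adjusted p of 0.908.

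TMCO4, a transmembrane protein gene, led the lower genes with 163, 130, 89.1 and 102 normalised CPM in control libraries 1, 2, 4 and 6, against 59.3, 71.6 and 48.3 in OVT73 libraries 3, 5 and 7 (log2 fold change -1.04, SE 0.23, edgeR adjusted p = 0.908). Its values in D1 and D2 MSNs were -0.86 and -0.74 on the same scale. KCNK2, a background potassium channel, stood at 108 to 190 normalised CPM in control and 80.6 to 106 in OVT73 libraries, with a log2 fold change of -0.83 (SE 0.21) against 0.05 (D1) and 0.05 (D2). PGRMC1, a haem-binding membrane protein, SLC3A1, DHX38 (a splicing helicase), CLDND1, BTAF1, GPR161, RERG and MASP2 made up the rest, with log2 fold changes between -1.56 and -0.62.

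Whether the OVT73 difference was particular to eccentric MSNs was tested as an interaction between class and genotype, with the library as a block, on 14 sums (members, and D1 and D2 MSNs together, in each library). Of 11673 genes tested, 2 passed an edgeR adjusted p of 0.05 (0.0171%). The difference of log2 fold changes was 0.98 (SE 0.18) for UBE2U with an adjusted p of 0.0254, and 1.74 (SE 0.25) for PEX5L with an adjusted p of 0.00233. On simulated counts this test made more false calls than its nominal share. The interaction call of UBE2U was lost with DESeq2-type size factors (adjusted p = 0.0509) and when any of libraries 1, 2, 3, 6 or 7 was left out, with an edgeR adjusted p of 0.0801 to 0.380.

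PEX5L encodes a partner of HCN channels in neurons that is related to the peroxisomal import receptor. Its normalised CPM in members was 89.9, 88.9, 44.6 and 21.6 in control libraries 1, 2, 4 and 6, against 155, 119 and 131 in OVT73 libraries 3, 5 and 7, all 3 above all 4. In D1 MSNs it was 45.1, 38.4, 39.9 and 25.1 in control and 32.5, 20 and 25 in OVT73 libraries, with a lower mean in OVT73 but with overlap. In D2 MSNs the mean was 36.8 in control and 26.7 in OVT73 libraries, with overlap. Without the 2 control libraries of 1 sheep, the log2 fold change in members was 0.61, against 1.12 with them.

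Over all barcodes PEX5L stood at 280 to 604 CPM in control and 368 to 563 CPM in OVT73 libraries, above the members. Oligodendrocyte genes in members summed to 60.1, 132, 108 and 183 CPM in control and 122, 111 and 131 CPM in OVT73 libraries, and in D1 MSNs to between 160 and 232 CPM in control and between 106.8 and 162 CPM in OVT73 libraries. Within UNC5D-low members PEX5L was 87.5, 25.5, 32.5 and 23.9 CPM in control and 111, 84.1 and 50.7 CPM in OVT73 libraries, so that the groups overlapped. When the unassigned MSN nuclei (1878 with MSN genes, low ERBB4 and neither a D1 nor a D2 majority) were added to the D1 and D2 sums, the interaction of PEX5L was 1.78 with an adjusted p of 0.208. In D2 MSNs the oligodendrocyte sums were 123 to 382 CPM in control and 78 to 149 CPM in OVT73 libraries. The 6 oligodendrocyte genes had a median difference of log2 fold changes of 0.72 between members and D1 plus D2 MSNs. Over all genes tested it was 0.03, so that the oligodendrocyte difference pointed the same way as PEX5L. In members themselves, the 3 oligodendrocyte genes tested had a median log2 fold change of -0.55 (1 higher, 2 lower), opposite in sign to PEX5L. Against D1, D2 and unassigned MSNs together, UBE2U kept its call, with a difference of 0.90 and an edgeR adjusted p of 0.0269. The part of oligodendrocyte RNA and of the mix of members in the result was not tested.

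**Figure D4:**
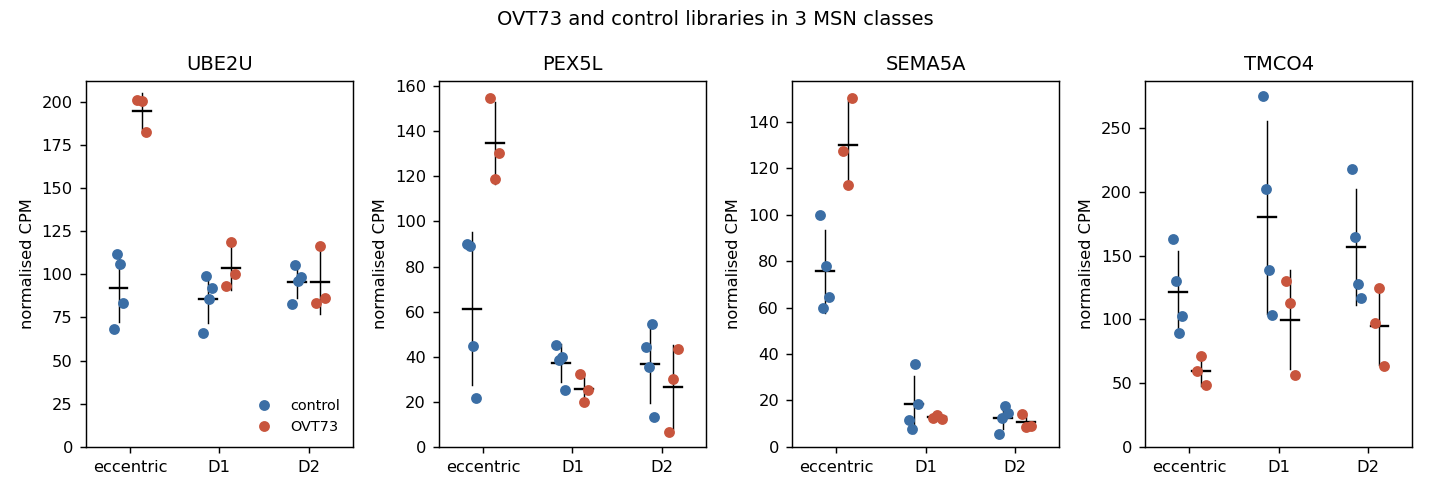
Normalised CPM of UBE2U, PEX5L, SEMA5A and TMCO4 in eccentric, D1 and D2 MSNs, with 1 point per library and the mean with SD as lines. UBE2U, PEX5L and SEMA5A separate the genotypes in eccentric MSNs, at 183 to 201 against 68.1 to 112 for UBE2U, and TMCO4 is lower in OVT73 members.

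Among the pathway lists with more than 1 gene tested, leaving aside the lists of cell type markers, 2 had medians furthest from that of all genes. Cytosolic ribosomal protein genes had 38 of 58 members tested, of which 38 had a log2 fold change under 0 and 0 above it, with a median of -0.65 beside -0.01 over all genes tested. None passed the edgeR adjusted p of 0.05, and 5 (RPL9, RPL18, RPL26, RPL31 and a copy of RPS12) were lower without overlap, which is 13.2% beside 3.1% over all genes tested. RPL31, a large subunit protein, stood at 99.7, 68.2, 81.7 and 170 normalised CPM in control libraries 1, 2, 4 and 6, against 43.9, 60.7 and 63.6 in OVT73 libraries 3, 5 and 7.

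The summed CPM of the list put these values in order. In members it was 1796, 1153, 1715 and 3251 CPM for control libraries 1, 2, 4 and 6, whereas OVT73 libraries 3, 5 and 7 had 894, 1352 and 1256 CPM. Control library 6 was the highest, and control library 2 lay within the OVT73 range. Without library 6 the median was -0.39, with 35 of 39 genes below 0, and without both control libraries of 1 sheep it was -0.27, with 30 of 42 below 0. Control libraries 6, 1 and 4 were the 3 highest in members and also over all barcodes, and the other libraries changed places. The sums were 3264, 1924, 2809 and 3364 CPM over all barcodes of the control and 2126, 2073 and 2300 of the OVT73 libraries. The same 38 genes had a median of -0.39 in D1 and -0.25 in D2 MSNs, of nuclei from the same libraries.

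Nuclear genes of oxidative phosphorylation had 39 of 70 members tested, of which 33 were below 0 and 6 above, with a median of -0.43. ATP5PF, NDUFA6, NDUFB5 and NDUFS5 were lower without overlap, and NDUFS4, a complex I subunit, was higher at 162 to 171 normalised CPM in OVT73 against 136 to 151 in control libraries. These were 10.3% and 2.56% of the list, beside 3.1% lower and 2.92% higher over all genes tested. The list summed to 1644, 1481, 1500 and 2473 CPM in control and 1215, 1407 and 1443 CPM in OVT73 libraries, and without control library 6 the median was -0.16. The same 39 genes had a median of -0.23 in D1 and -0.14 in D2 MSNs.

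**Figure D5:**
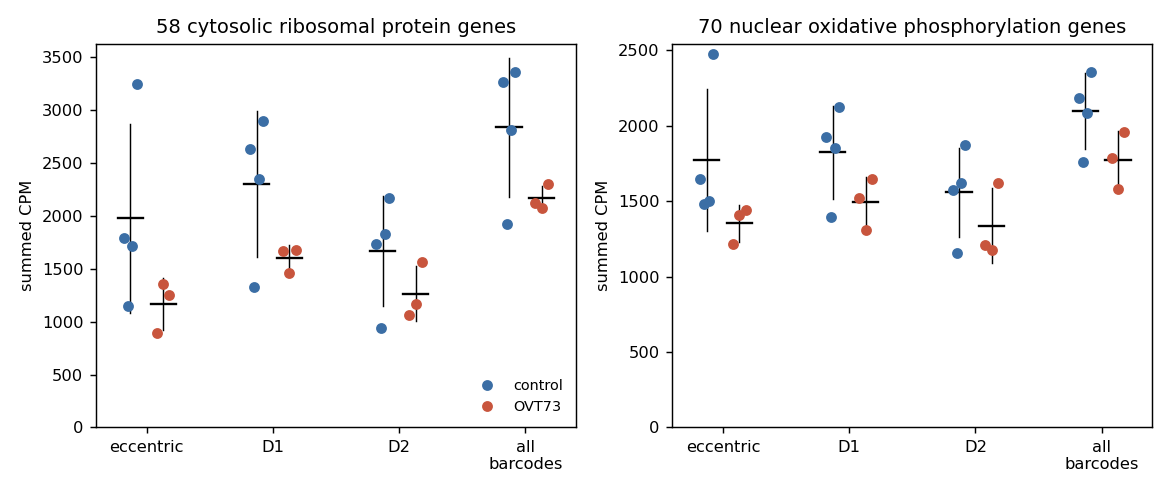
Summed CPM of the cytosolic ribosomal protein genes and of the nuclear oxidative phosphorylation genes in eccentric MSNs, D1 MSNs, D2 MSNs and all barcodes, with 1 point per library and the mean with SD as lines. Control library 6 is the highest in eccentric MSNs, at 3251 and 2473 CPM.

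The receptor and channel lists had medians nearer to that of all genes. The 9 GABAA receptor genes tested had log2 fold changes above 0, with a median of 0.12, but 4 of 9 were below 0 without OVT73 library 5 and 3 of 9 when scaled to total UMIs, and the median was 0.09 to 0.27 with 1 library left out. GABRA2 was higher without overlap (236 to 327 normalised CPM in control, 356 to 404 in OVT73 libraries). The median was -0.14 for 4 NMDA receptor genes, of which 2 were above 0 and 2 below. Medians were 0.05 for 4 AMPA, -0.01 for 7 kainate and delta and 0.10 for 5 metabotropic glutamate receptor genes. With 1 library left out the medians were, in this order, -0.30 to -0.01, -0.004 to 0.14, -0.06 to 0.06 and -0.05 to 0.21. The sign thus held only for the NMDA list, whose median was -0.0005 without the filter on low counts. Medians were 0.02 for 23 potassium and 0.02 for 19 calcium and sodium channel genes. Of the latter, RYR2 and RYR3, the intracellular calcium release channels, were higher without overlap, with log2 fold changes of 0.21 and 0.17. Synaptic adhesion genes had a median of 0.14 (22 genes, NRXN3 higher without overlap) and axon guidance genes 0.10 (30 genes, SEMA5A and SLIT1 higher, NRP2 and UNC5D lower). Those without overlap were 11.1% (higher) of GABAA receptor, 10.5% (higher) of calcium and sodium channel, 4.35% (lower, KCNK2) of potassium channel, 4.55% (higher) of synaptic adhesion and 6.67% (each way) of axon guidance genes, beside 2.92% higher and 3.1% lower over all genes tested. With 1 library left out the medians were -0.08 to 0.08 for potassium and -0.06 to 0.10 for calcium and sodium channels, 0.08 to 0.26 for synaptic adhesion and 0.05 to 0.23 for axon guidance.

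The remaining lists gave medians of -0.01 for 4 genes of GABA synthesis and transport, -0.07 for 8 dopamine, opioid and peptide receptor genes, 0.01 for 10 heat shock genes (HSPA4L higher without overlap) and -0.09 for 18 proteasome genes. Leaving out 1 library changed the sign of each of these 4, with ranges of -0.08 to 0.12, -0.32 to 0.11, -0.14 to 0.10 and -0.20 to 0.01. No median is given for the neuregulin, transcription factor and cyclic nucleotide lists, which hold genes that the selection used. GAD2, the other GABA-synthesising enzyme, was lower without overlap at 165 to 199 against 199 to 265 normalised CPM (log2 fold change -0.33, SE 0.15). In the disease-related list of huntingtin and repeat stability genes the median was -0.03 over 7 genes (-0.10 to 0.04 with 1 library left out), of which 14.3% (1 gene) were lower without overlap. GAD2 was 25% of its list and HSPA4L 10% of its list, and over all genes tested 2.92% were higher and 3.1% lower without overlap, so that each of these rests on a single gene. TAC1 was the only neuropeptide gene and HOMER1 the only immediate early gene with enough UMIs to be tested, at -0.49 (SE 0.54) for TAC1 and 0.14 for HOMER1.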

How the data were processed

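For each library the authors deposited the raw UMI counts of 26479 features per barcode. Per the labels and the submitters' processing notes they were made with Cell Ranger 7.0.0 and STAR 2.7.2a on the sheep genome Oar_rambouillet_v1.0 with an Ensembl annotation, and were neither normalized nor assigned to sheep within a pool. Library numbers are those of the study. Features were used by symbol, and symbols such as CASZ1 and DRD1 were not analysed here. Some members of the lists are not reported here.

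The members and lists were chosen with earlier results of these data known. D1 and D2 MSNs had at least 10 UMIs of PDE10A, RGS9 and RARB, fewer than 30 ERBB4 UMIs per 10000, and at least 3 UMIs of TAC1 and EBF1, or of DRD2, PENK and ADORA2A, over 2 times the other sum. ERBB4 interneurons had 30 or more ERBB4 UMIs per 10000 and at least 10 UMIs of NXPH1, KIT and CRABP1, more than of OTOF and FOXP2. Class levels are CPM of summed raw counts, averaged over 7 libraries, with no gene length. Doublets were scored with scrublet (scanpy 1.11.5), whose automatic threshold marked 8 barcodes and was not used, and no barcode was removed for it.

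Counts summed per library were compared with edgeR 4.0.16 in R 4.3.3 (filterByExpr, TMM, robust quasi-likelihood test, two-sided). Normalised CPM are TMM-scaled. DESeq2 1.42.0 was an alternative. The steps were tested on simulated counts, in which the interaction test made more false calls than its nominal share at each fold simulated, and the test of OVT73 against control did so for some of them. The exact permutation p is the share of the 35 splits with an absolute difference in means as large as observed; doubling the one-sided p would give 0.0571 in place of 0.0286. Whether the libraries differ by batch is not stated, and p-values measure the spread between these libraries, which hold 1 or 2 sheep each.

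Genes named for OVT73 against control were every gene past an adjusted p of 0.05 and the 10 per direction with a symbol, no overlap and the smallest p. Genes named between classes were the 15 highest and 15 lowest log2 ratios, with the same sign in all libraries and outside the gates, and for lists up to 4 by level or by passing a threshold. Alternatives covered normalization, the low-count filter, each library left out, the gate limits, mitochondrial share, doublet scores, equal numbers of members and thinning.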

Additional observations from a re-analysis of the deposited data

Results flagged for a closer look

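Of eccentric, D1 and D2 MSNs, the OVT73 difference was unequal by the interaction test for PEX5L, with a difference of log2 fold changes of 1.74, and for UBE2U, with 0.98 (edgeR adjusted p of 0.00233 and 0.0254). The call of UBE2U was lost without library 1, 2, 3, 6 or 7 and with DESeq2-type size factors, and that of PEX5L was lost against D1, D2 and unassigned MSNs together (adjusted p = 0.208). In members the 3 OVT73 libraries were higher than the 4 control libraries for both genes.

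Among 29 sets of 4 control values examined for 1 library far from the others, 2 were found. Chance gives about 1 in 20 of such sets, so that 2 of 29 is near the share that chance gives. Control library 4 had 2.75% eccentric MSNs among barcodes with 5000 or more UMIs against 1.99% to 2.08% in the other control libraries, a gap of 0.877 of the range. Control library 6 had 2473 CPM of nuclear oxidative phosphorylation genes in eccentric MSNs against 1481 to 1644 CPM, a gap of 0.835 of the range.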

How the results depend on the processing

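The count of genes called between OVT73 and control members was 1 with DESeq2 and 19 (14 higher, 5 lower) without a filter on low counts. It was 0 under the other 18 alternatives, leaving out each library included (0 to 0). Of these alternatives, the limit of 5% mitochondrial UMIs removed no member, so that it could change no gene value or list median. The count with unadjusted p under 0.05 was 208, 925 and 593 with DESeq2, without the filter and without the 2 libraries of 1 sheep, and 235 to 495 with 1 library left out. None of 389 values of the named genes changed direction, and 6 passed the threshold. These genes were chosen for separating the groups without overlap, so that an unchanged direction was largely set by that choice. Of 380 list medians, 23 moved by over 1 SD. Scaling to total UMIs moved the median of all genes from -0.01 to -0.05. The UNC5D-low fit, the pooling with unassigned MSNs and the share among all MSN nuclei were chosen after seeing the data.

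The interaction gave 1 gene with DESeq2-type size factors and 1 to 3 genes with 1 library left out. PEX5L was called in each of these, and not against D1, D2 and unassigned MSNs together, where ELAVL2, KCNK2 and UBE2U were called.

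The OVT73 excess in the share of barcodes was 0.166 to 0.213 percentage points with 1 library left out, where the smallest possible exact p is above 0.05, and 0.0270 after thinning (p = 0.571). Thinning reversed the difference among deep barcodes (-0.132) and among MSNs (-0.583). With 1 library left out these were 0.136 to 0.485 and 0.0793 to 1.48. Shares among all MSN nuclei, with the unassigned added, differed by 0.565, and by 0.376 to 0.986 with 1 library left out. The D1-like difference of -0.566 points became 3.59 with 3 OTOF UMIs and 0.60 without the highest doublet scores, and -6.47 to 5.61 with 1 library left out. After thinning the D1-like difference was -18.1 points (30.9% against 49.1% of members, exact p = 0.486) and the tied difference 21.7 (exact p = 0.371). The D2-like difference of -0.825 ranged from -2.08 to 1.09 and the tied difference of 1.39 from -3.62 to 7.61 with 1 library left out, so that both changed sign, and the cause was not tested.

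No paired analysis was possible because replicate numbers follow the accession order. Depth limits genes with few UMIs, since a control library holds 17 to 21 members.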
